A study of Mus musculus with 6 samples.

Results

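The proteasome genes of RAW264.7 cells were followed in 6 RNA-seq libraries, 3 from cells infected with a vector carrying Fbxw11 and 3 from cells infected with the control vector. The members were the protein-coding rows whose symbol begins with Psma to Psmg followed by a number, with or without a closing letter: 49 of 21970 protein-coding rows and of 56748 rows in all. RAW264.7 is a mouse macrophage-like line. Delivery was by lentivirus, the Fbxw11 plasmid being named pMSCV-Fbxw11-pGk-GFP and the control libraries GFP, and the cells, grown in medium with serum and antibiotics, were sorted before RNA extraction. The labels name no other agent, and give neither the gate of the sort nor the time after infection. Fbxw11 encodes an F-box protein that lets an SCF ubiquitin ligase recognise its substrates, and ubiquitinated proteins are what the proteasome degrades. Values are FPKM, fragment counts that the authors scaled to gene length and library size. Separate infections or cultures are not mentioned for the 3 libraries of a group, and every p-value below therefore rests on a spread that could be technical.

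The proteasome is a barrel of stacked rings with proteolytic sites inside, capped by a regulatory particle that binds, unfolds and feeds in ubiquitinated proteins. Outer rings are built from alpha subunits (Psma genes) and inner rings from beta subunits (Psmb genes), of which Psmb6, Psmb7 and Psmb5 carry the active sites. In immune cells and under interferon, Psmb9, Psmb10 and Psmb8 take the places of Psmb6, Psmb7 and Psmb5 in newly built particles, giving the immunoproteasome, which favours peptides that fit MHC class I. Macrophages are known to express both forms. The transcripts measured here do not tell which subunits were assembled.

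Fbxw11 itself, the check of the labels, stood at 35.751, 36.549 and 35.995 FPKM in control libraries and 274, 272 and 268 FPKM in Fbxw11 libraries, a 7.51-fold difference. Recovered reads, obtained as whole multiples of the value of 1 read, numbered 16191971 to 18951653 per library, and proteasome genes took 0.742% to 0.744% of them in control and 0.721% to 0.770% in Fbxw11 libraries. All 8 macrophage markers examined were above 1 FPKM. Their summed FPKM per library was 3203 to 3372 for control and 3564 to 3693 for Fbxw11. Most of that sum was Lyz2, with group means of 2346 (control) and 2628 (Fbxw11). Of the 8 markers 4 (50%) rose, beside 4.6% of all genes, and 0 fell. Groups did not overlap for 6 higher markers and 1 lower, Csf1r, which did not pass (log2 fold change -0.07, adjusted p = 0.290). The 8 markers of other cell types summed to between 2.31 and 2.83 FPKM, with 2 of the 8 at a mean of at least 1 FPKM and Ncr1 at 0 in every library. In bulk RNA a change in the share of cells that express a gene and a change in RNA per cell cannot be told apart.

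Proteasome transcripts were abundant and differed little between the groups. Of the 49 genes 48 passed the filter of a mean of at least 1 FPKM, and each of those 48 was at or above 1 FPKM in every library. Of the 48, 1 rose (Psma7) and 1 fell (Psmg2) at a limma adjusted p under 0.05, with Benjamini-Hochberg adjustment over all 10898 genes tested. That is 4.17% of the members, beside 9.24% of all genes tested (4.6% rose and 4.64% fell). At an unadjusted p under 0.05 there were 12 members, or 25.0%, beside 24.6% of all genes. Groups did not overlap for 13 members, 9 higher and 4 lower in the Fbxw11 libraries, or 27.1% beside 31.1% of all genes. The median log2 fold change was 0.03 over the members and 0.00 over all genes tested, and the median absolute log2 fold change was 0.06 against 0.09. The median SE was lower for the members too, 0.046 against 0.061. How far the lower SE accounts for the smaller absolute change was not tested. For 39 of the 48 the 95% interval of the log2 fold change lay between -0.3 and 0.3. The same share was not counted over all genes, so this count does not set the members apart.

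**Figure D1:**
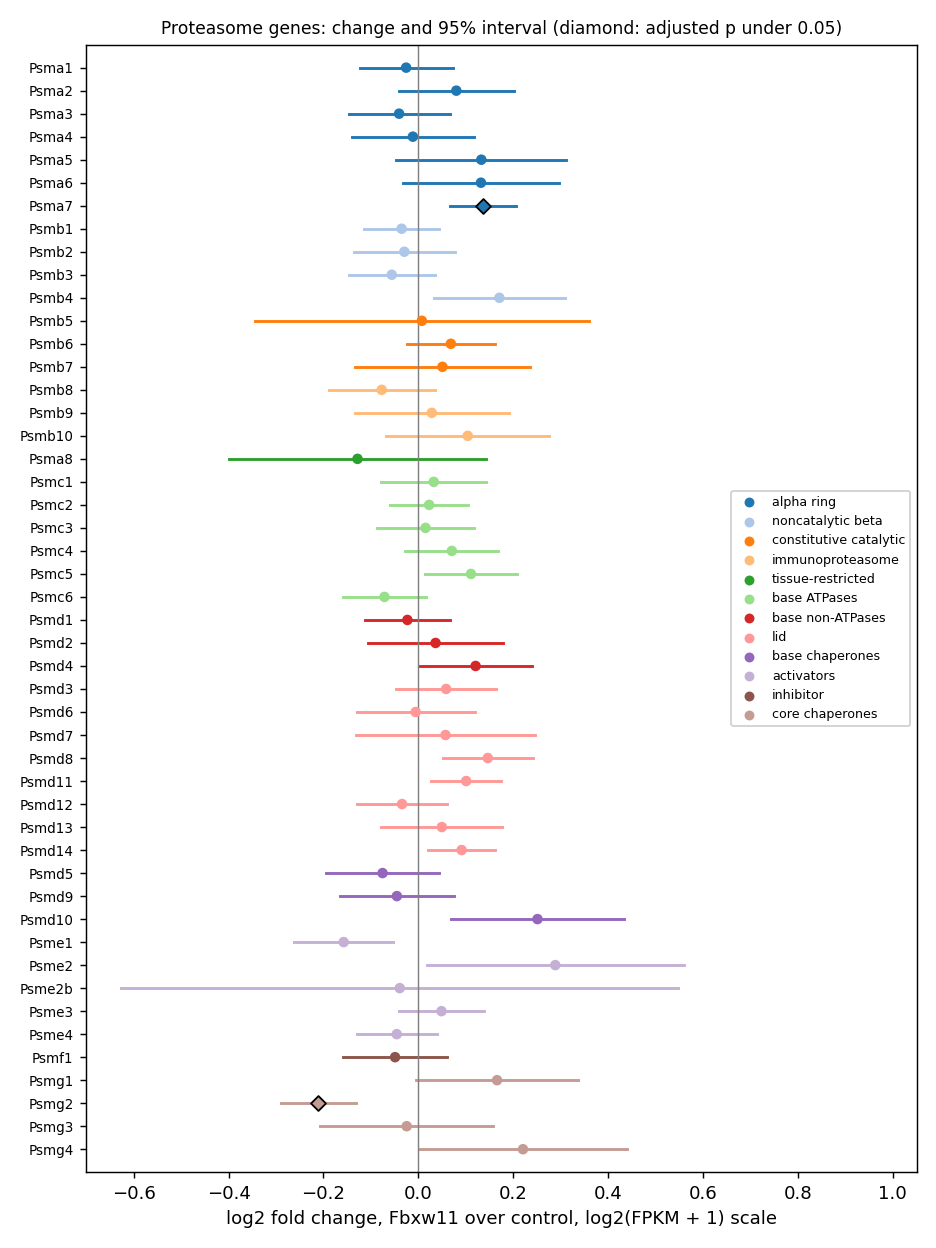
Log2 fold change of each tested proteasome gene (Fbxw11 over control, on the log2(FPKM + 1) scale, n = 3 libraries per group) with limma's 95% interval as a line, coloured by role. Diamonds mark the 2 genes at an adjusted p under 0.05, Psma7 at 0.14 and Psmg2 at -0.21, and the widest interval is that of Psme2b, from -0.63 to 0.55.

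None of the 6 catalytic subunits set against each other passed the test. Psmb8, the immunoproteasome counterpart of Psmb5, stood at 30.1, 30.6 and 31.4 FPKM in control libraries 1 to 3 and at 30.3, 29.6 and 27.3 FPKM in Fbxw11 libraries 1 to 3. The groups overlapped, with Fbxw11 library 3 the lowest of the 6 (log2 fold change -0.08, SE 0.05, 95% interval -0.19 to 0.03, adjusted p = 0.362). Psmb9, the counterpart of Psmb6, was the least abundant of the 6 genes, at 5.998, 5.344 and 5.156 FPKM in control and 6.056, 5.464 and 5.356 FPKM in Fbxw11 libraries. Library 1 was the highest in both groups (log2 fold change 0.03, SE 0.07, interval -0.13 to 0.19, adjusted p = 0.840), and the sign turned on the TPM scale and over plain read sums. Psmb10, the counterpart of Psmb7, stood at 21.4, 23.6 and 24.1 FPKM in control and 26.6, 22.6 and 25.3 FPKM in Fbxw11 libraries. These values interleaved (0.10, SE 0.07, interval -0.07 to 0.28, adjusted p = 0.425).

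Psmb6, with the caspase-like site, stood at 87.7, 93.8 and 93.7 FPKM in control and 98.6, 94.1 and 96.0 FPKM in Fbxw11 libraries. Its groups did not overlap, yet the difference was close to the spread between libraries (log2 fold change 0.07, SE 0.04, interval -0.02 to 0.16, adjusted p = 0.335). Psmb7, with the trypsin-like site, stood at 48.7, 45.2 and 54.1 FPKM in control and 53.6, 52.5 and 47.2 FPKM in Fbxw11 libraries (0.05, SE 0.08, interval -0.13 to 0.23, adjusted p = 0.735). Psmb5, with the chymotrypsin-like site, stood at 68.9, 68.9 and 54.4 FPKM in control and 75.1, 66.5 and 52.5 FPKM in Fbxw11 libraries. Library 3 was the lowest in both groups, which left the widest interval of the 6 (log2 fold change 0.01, SE 0.15, interval -0.34 to 0.36, adjusted p = 0.982). Its sign turned on the TPM scale and over plain read sums.

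**Figure D2:**
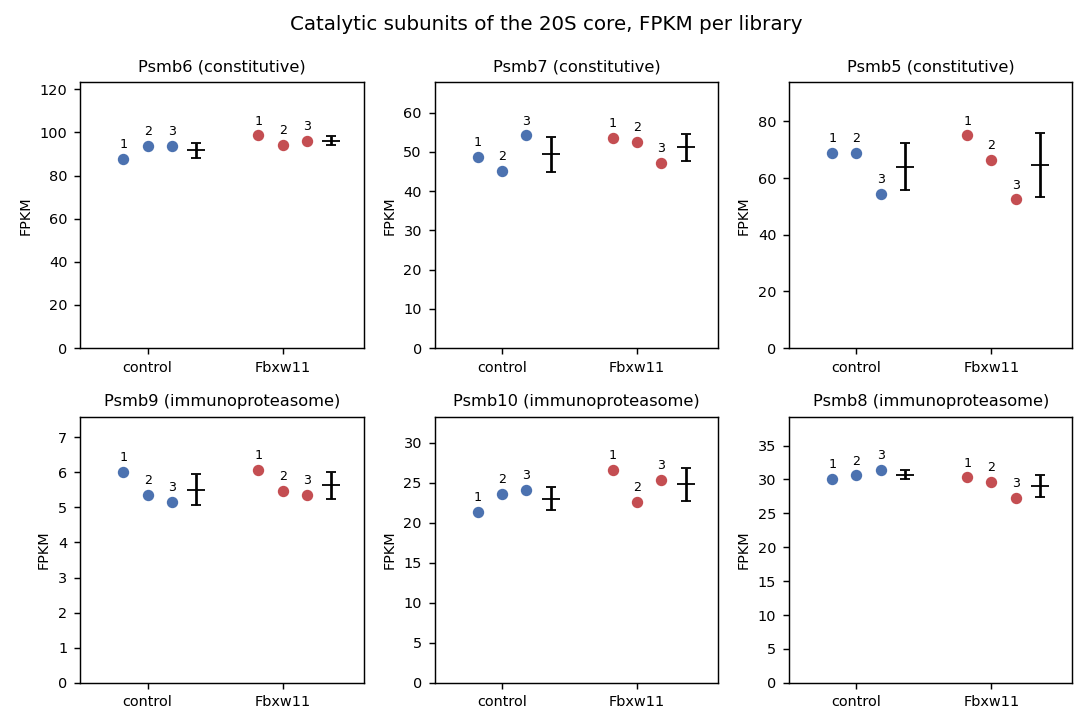
FPKM of the 3 constitutive catalytic subunits (top) and their immunoproteasome counterparts below them, 1 point per library numbered by replicate, with the mean and SD of n = 3 as a bar beside each group. Only Psmb6 has groups that do not overlap, and library 3 is the lowest point of both groups for Psmb5.

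The balance between the 2 forms was read within each library as the log2 ratio of an immunoproteasome subunit to its counterpart, which does not depend on how libraries were scaled. For Psmb8 to Psmb5 it was -1.20, -1.17 and -0.80 in control and -1.31, -1.17 and -0.95 in Fbxw11 libraries. For Psmb9 to Psmb6 it was -3.87, -4.13 and -4.18 in control and -4.02, -4.11 and -4.16 in Fbxw11 libraries. For Psmb10 to Psmb7 it was -1.19, -0.94 and -1.17 in control and -1.01, -1.22 and -0.90 in Fbxw11 libraries. A library difference that touches only 1 gene of a pair stays in its ratio. The ratio of Psmb8 to Psmb5 was highest in library 3 of both groups, where Psmb5 was lowest. In each pair the groups overlapped, and the difference of the means (-0.09, -0.04 and 0.06) was smaller than the SD within either group (0.07 to 0.22). Summed over the 3 pairs, immunoproteasome subunits made up 21.9%, 22.3% and 23.0% of the catalytic FPKM in control libraries and 21.7%, 21.3% and 22.8% in Fbxw11 libraries. The sign of each difference turned when some single libraries were left out. These ratios are descriptions, with no test.

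How much immunoproteasome transcript the cells held depended on the length used. FPKM in the table divides by a gene length of 3381 bases for Psmb8 and 899 for Psmb5. The principal coding transcripts in GENCODE M21 are 1628 and 899 bases long. For 46 of the 49 genes that transcript was shorter than the length in the table, and for 17 it was under 0.5 of it. On the table's lengths Psmb5 was 2.09-fold above Psmb8 in control libraries and Psmb7 2.14-fold above Psmb10. With principal transcript lengths, an alternative chosen after seeing the data, Psmb5 was 1.01-fold above Psmb8 and Psmb7 4.86-fold above Psmb10. Psmb6 was above Psmb9 on either, 16.7-fold and 14.5-fold. Ratios of the group means do not depend on the length. The log2 fold changes and the filter do to some extent, since 1 is added to FPKM and the filter is set in FPKM.

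**Figure D3:**
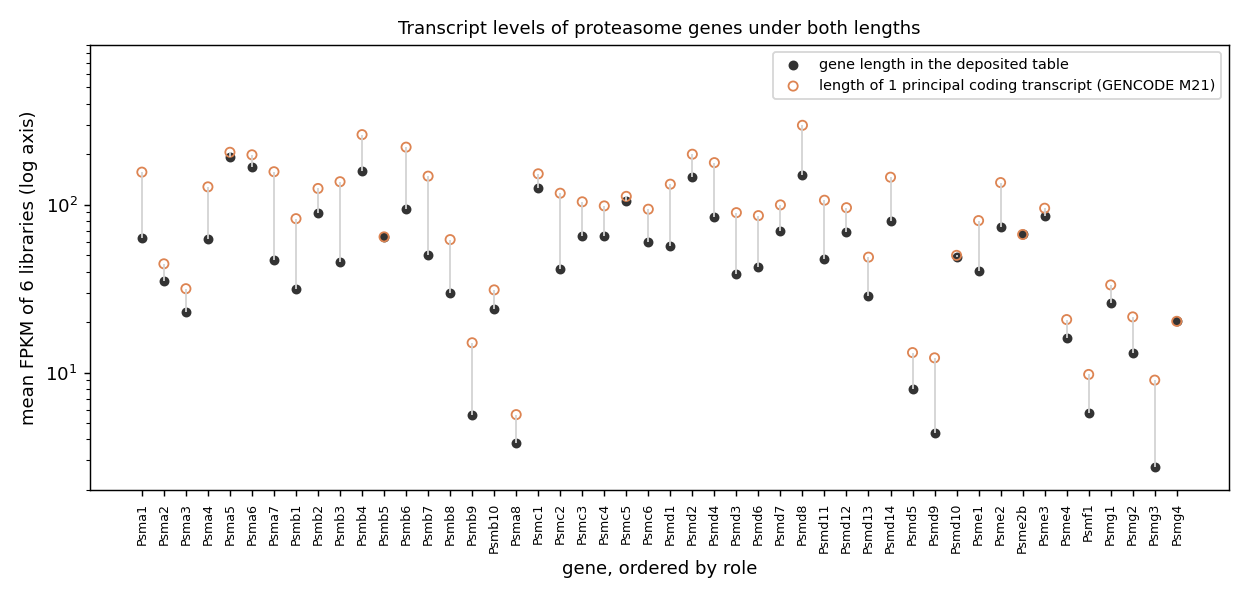
Mean FPKM over the 6 libraries of the 48 tested proteasome genes, ordered by role, with the gene length of the deposited table (filled) and with the length of 1 principal coding transcript (open), on a log axis. Psmb5 has the same value on both, 64.4 FPKM, while Psmb8 moves from 29.9 to 62.0 FPKM, and Psmb9 stays far below Psmb6 on either.

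The stretches before the starts of 5 of the 6 catalytic subunit genes, all but Psmb7, are shown because interferon-responsive and stress-responsive factors are known to act on such genes through them. They are the 250 bases before the RefSeq start of each gene (GRCm38.p6), with matches in capitals: TGACNNNGC, an antioxidant response element, in Psmb5 (chr14:54617996-54618245, minus strand) and Psmb6 (chr11:70525107-70525356, plus strand), TTCNNNGAA, a gamma-activated site, in Psmb8 (chr17:34197945-34198194, plus strand), and CCAAT, read on the other strand, in Psmb9 (chr17:34187331-34187580, minus strand). The window of Psmb10 (chr8:105938393-105938642, minus strand) holds no match and has no capitals.
Psmb5: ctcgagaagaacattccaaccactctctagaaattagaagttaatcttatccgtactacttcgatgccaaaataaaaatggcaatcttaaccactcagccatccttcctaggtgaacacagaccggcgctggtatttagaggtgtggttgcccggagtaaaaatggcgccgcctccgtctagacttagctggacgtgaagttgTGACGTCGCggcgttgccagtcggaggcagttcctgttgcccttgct
Psmb6: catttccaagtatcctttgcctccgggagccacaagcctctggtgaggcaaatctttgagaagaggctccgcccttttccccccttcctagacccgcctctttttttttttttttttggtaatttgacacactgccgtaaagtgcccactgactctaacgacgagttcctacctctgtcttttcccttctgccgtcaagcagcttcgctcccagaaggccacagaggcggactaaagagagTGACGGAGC
Psmb8: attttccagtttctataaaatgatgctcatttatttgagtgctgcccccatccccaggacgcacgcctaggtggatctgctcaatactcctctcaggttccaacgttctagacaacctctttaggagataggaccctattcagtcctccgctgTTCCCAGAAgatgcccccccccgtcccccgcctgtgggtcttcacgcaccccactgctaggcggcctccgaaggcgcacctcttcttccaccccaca
Psmb9: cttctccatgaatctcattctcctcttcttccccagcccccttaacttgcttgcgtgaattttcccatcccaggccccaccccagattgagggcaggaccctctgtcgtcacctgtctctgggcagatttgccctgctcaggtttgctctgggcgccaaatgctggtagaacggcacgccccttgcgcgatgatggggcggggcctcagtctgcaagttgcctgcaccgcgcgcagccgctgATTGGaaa
Psmb10: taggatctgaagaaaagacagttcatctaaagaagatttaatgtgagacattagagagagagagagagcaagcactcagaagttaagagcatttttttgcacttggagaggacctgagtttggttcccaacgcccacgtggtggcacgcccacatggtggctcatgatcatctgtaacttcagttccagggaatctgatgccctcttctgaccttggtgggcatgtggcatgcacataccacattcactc

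Both strands were searched. RefSeq windows were matched for 41 of the 49 genes, 44 windows in all. The antioxidant response element was found before 5 of the 41 genes (11.4% of their windows, 10.2% of all 32851 windows of this length) and the gamma-activated site before 2, Psmb8 and Psmg1 (4.55% against 7.02%). The interferon-stimulated response element, searched as GAAA, any 2 bases and GAAA again, was found before 3, Psmb3, Psmd4 and Psmd9 (6.82% against 2.98%), and CCAAT before 14 (31.8% against 33.8%). Each of the other windows shown holds a single match among the 4 motifs. A match describes letters and is no evidence of binding, and no match says only that these letters are not in the window.

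Psmb9 lies head to head with Tap1, the gene of a peptide transporter subunit, with which it is known to share a promoter region. In the table's coordinates, whose build is uncertain, Psmb9 ends at 34406738 on the minus strand of chromosome 17 and Tap1 starts at 34406527 on the plus strand, an overlap of 212 bases. Tap1 stood at 26.5, 26.2 and 30.1 FPKM in control and 32.3, 30.8 and 32.0 FPKM in Fbxw11 libraries. Its groups did not overlap but it did not pass (log2 fold change 0.19, SE 0.06, adjusted p = 0.0935). The sources do not say whether counting used strand, so reads in the overlap cannot be assigned with certainty. The other members overlapped on the opposite strand by a gene of at least 1 FPKM were Psmb7 (Nek6), Psmc3 (Slc39a13) and Psme1 (Emc9), 4 of 49 with Psmb9, and 4 others had such a gene on their own strand: Psma2 (AW209491), Psmc5 (Gm23645), Psmd13 (Gm15542) and Psme2b (9930111J21Rik1).

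Of the 7 alpha ring genes 1 rose and 0 fell (14.3%, beside 9.24% of all genes called in either direction). A single call among so few genes says little about the ring. Psma7 (ENSMUSG00000027566, chromosome 2 at 179678167 to 179684226 in the table's coordinates) stood at 44.2, 45.3 and 44.3 FPKM in control and 48.7, 49.0 and 49.6 FPKM in Fbxw11 libraries. The groups were tight and did not overlap (log2 fold change 0.14, SE 0.03, adjusted p = 0.0345). The call was lost under 10 of 15 alternatives, among them each library left out, with adjusted p from 0.0289 to 0.129 over the 15. Psma5 and Psma6 had the highest FPKM of all members on the table's lengths, while with principal transcript lengths Psmd8 (298 FPKM), Psmb4 (262 FPKM) and Psmb6 (220.5 FPKM) were above both. Psma5 stood at 184, 177 and 190 FPKM in control and 215, 212 and 179 FPKM in Fbxw11 libraries (adjusted p = 0.330), and Psma6 at 157, 161 and 161 FPKM and 181, 189 and 157 FPKM (adjusted p = 0.297). In both, Fbxw11 libraries 1 and 2 lay above all controls and library 3 within their range or level with the lowest. Reads of Psma5 are uncertain to the extent that they match its processed copy Psma5-ps, at a mean of 14.2 FPKM. The other 4 alpha genes averaged 23.1 (Psma3) to 63.7 FPKM (Psma1), with log2 fold changes of -0.04 to 0.08.

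Of the 4 beta subunits without an active site, Psmb1 to Psmb4, 0 passed. Psmb4 stood at 148, 143 and 157 FPKM in control and 177, 170 and 157 FPKM in Fbxw11 libraries (log2 fold change 0.17, SE 0.06, adjusted p = 0.130). Its lowest Fbxw11 library was level with the highest control. Psmb1, Psmb2 and Psmb3 had log2 fold changes of -0.04, -0.03 and -0.06. Although the 14 constitutive core subunits are known to be present in equal numbers in the particle, their mean FPKM spanned 8.34-fold, from Psma3 to Psma5, and with principal transcript lengths 8.28-fold, from Psma3 to Psmb4.

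The regulatory particle showed no gene past the threshold. Of the 6 ATPases that drive unfolding, Psmc1 to Psmc6, 0 passed, and their means ran from 41.6 (Psmc2) to 126 FPKM (Psmc1). Psmc5 stood at 99.5, 102 and 104 FPKM in control and 115, 110 and 105 FPKM in Fbxw11 libraries, without overlap (log2 fold change 0.11, SE 0.04, adjusted p = 0.156), and Psmc6 was lower in each Fbxw11 library than in each control (-0.07, adjusted p = 0.289). Of the scaffold subunits Psmd1 and Psmd2 and the ubiquitin receptor Psmd4, 0 passed. Psmd4 stood at 78.8, 82.2 and 81.8 FPKM in control and 93.9, 87.4 and 83.2 FPKM in Fbxw11 libraries (0.12, SE 0.05, adjusted p = 0.196).

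Of the 8 lid subunits among the members 0 passed, and 3 (37.5%, beside 31.1% of all genes) had groups that did not overlap. Psmd8 was the most abundant of them, at 145, 147 and 136 FPKM in control and 158, 154 and 161 FPKM in Fbxw11 libraries (log2 fold change 0.15, SE 0.04, adjusted p = 0.0735). Psmd14, the deubiquitinase that removes ubiquitin from bound substrates, stood at 76.7, 76.9 and 78.0 FPKM in control and 82.7, 83.6 and 80.6 FPKM in Fbxw11 libraries (0.09, SE 0.03, adjusted p = 0.116). Psmd11, which helps hold lid and base together, stood at 46.1, 45.2 and 46.0 FPKM and at 48.8, 50.3 and 48.5 FPKM (0.10, SE 0.03, adjusted p = 0.0985). All 3 were higher in each Fbxw11 library than in each control, with ratios of the means of 1.11, 1.07 and 1.07 for Psmd8, Psmd14 and Psmd11. The other 5 lid genes averaged 28.7 (Psmd13) to 69.8 FPKM (Psmd7), with log2 fold changes of -0.03 to 0.06.

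The activators that open the core without ubiquitin went different ways, and 0 of 5 passed. Psme1, PA28 alpha, stood at 44.5, 42.5 and 41.3 FPKM in control and 39.7, 36.8 and 38.3 FPKM in Fbxw11 libraries. Each Fbxw11 library lay below each control (log2 fold change -0.16, SE 0.04, adjusted p = 0.0767), and it passed on the TPM scale, over plain read sums and with voom on recovered reads. Psme2, PA28 beta and its partner in an interferon-inducible ring, stood at 62.1, 71.4 and 65.3 FPKM in control and 91.3, 85.8 and 67.9 FPKM in Fbxw11 libraries. Fbxw11 library 3 lay among the controls and the other 2 above them (0.29, SE 0.11, adjusted p = 0.180), the largest log2 fold change among the members.

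Psme2b, a copy of Psme2 on chromosome 11 with 1 exon in GENCODE M21, makes the value of Psme2 uncertain. Of 717 coding bases 712 (99.3%) were identical between the 2 genes, and the longest identical run was 311 bases. Coding bases 457 to 576 of both are shown, from the GENCODE M21 transcripts, since they hold 3 of the 5 differences, in capitals.
Psme2: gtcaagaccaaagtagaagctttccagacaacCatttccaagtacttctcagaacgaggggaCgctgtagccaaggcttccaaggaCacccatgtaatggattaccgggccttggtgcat
Psme2b: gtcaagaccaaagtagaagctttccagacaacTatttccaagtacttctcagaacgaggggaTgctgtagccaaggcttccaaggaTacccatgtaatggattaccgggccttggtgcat

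The sources do not say how reads that match both were counted. Psme2b stood at 83.0, 66.1 and 52.1 FPKM in control and 77.6, 75.1 and 45.2 FPKM in Fbxw11 libraries (log2 fold change -0.04, SE 0.25, adjusted p = 0.942), the largest SE of any tested member. Its sign turned without library 3 of both groups. Reads of both rows summed, an alternative chosen after seeing the data, came to 182, 184 and 162 CPM in control and 225, 212 and 155 CPM in Fbxw11 libraries, so that library 3 was lowest in each group and the groups overlapped. By contrast the coding sequences of Psmb5 and Psmb8, of Psmb6 and Psmb9 and of Psmb7 and Psmb10 shared 65.9%, 65.6% and 62.5% of aligned bases, with no identical run over 18 bases.

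Psme3, the nuclear activator PA28 gamma, stood at 86.2, 86.9 and 81.1 FPKM in control and 88.0, 89.0 and 85.9 FPKM in Fbxw11 libraries (log2 fold change 0.05, adjusted p = 0.483). Psme4, PA200, stood at 16.3, 16.3 and 16.3 FPKM and at 15.3, 15.9 and 16.2 FPKM (-0.05, SE 0.04, adjusted p = 0.485), with each Fbxw11 library slightly below each control. Psmf1, which encodes the inhibitor PI31, stood at 5.96, 5.58 and 6.11 FPKM and at 5.59, 5.61 and 5.75 FPKM (-0.05, adjusted p = 0.563). None of these differences exceeded the spread that the test allows for.

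Of the 4 core assembly chaperones 0 rose and 1 fell (25%, beside 9.24% of all genes called in either direction). A share over so few genes says little about the group. Psmg2 (ENSMUSG00000024537, chromosome 18 at 67774669 to 67787232 in the table's coordinates), which pairs with Psmg1 to assemble alpha rings, stood at 13.9, 14.1 and 14.3 FPKM in control and 11.9, 12.2 and 12.0 FPKM in Fbxw11 libraries. The groups were far apart for their spread, at a ratio of 0.855 (log2 fold change -0.21, SE 0.03, adjusted p = 0.0127), with 338 to 472 reads per library. It kept the sign under all 15 alternatives and the call under 12, with adjusted p from 0.00759 to 0.0715. The alternatives that ended the call included leaving out control library 2 and leaving out library 3 of both groups. Its partner Psmg1 stood at 26.2, 23.6 and 23.2 FPKM in control and 29.1, 28.2 and 24.9 FPKM in Fbxw11 libraries, with a log2 fold change of the other sign (0.17, SE 0.07, adjusted p = 0.213). Psmg4 stood at 20.1, 20.1 and 15.8 FPKM and at 22.7, 21.4 and 21.3 FPKM (0.22, SE 0.09, adjusted p = 0.200), and Psmg3 averaged 2.75 FPKM (-0.02).

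Of the 3 chaperones of the regulatory particle base, Psmd5, Psmd9 and Psmd10, 0 passed. Psmd10, gankyrin, stood at 43.8, 41.5 and 47.6 FPKM in control and 57.0, 54.0 and 47.9 FPKM in Fbxw11 libraries (log2 fold change 0.25, SE 0.08, adjusted p = 0.0971). Its groups did not overlap, though Fbxw11 library 3 lay just above control library 3. Psmd5 and Psmd9 averaged 8.01 and 4.39 FPKM, with log2 fold changes of -0.08 and -0.05. The 2 members known from other tissues were low. Psma8, the testis alpha subunit, ranged from 3.27 to 4.75 FPKM (139 to 195 reads per library), with 74.9% coding identity to Psma7. Psmb11, of the thymic cortex, had 0 reads in 5 libraries, which allows up to 3 reads (at most 0.0384 FPKM), and 1 read in Fbxw11 library 2.

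Library 3 of the Fbxw11 group moved many of these results. It was the lowest of its group for 29 of the 48 tested members (60.4%), beside 34.8% of all genes tested, and library 3 was the lowest of both groups for 14 (29.2% beside 14.5%). Summed FPKM of the 7 alpha ring genes was 569, 574 and 576 in control and 630, 639 and 565 in Fbxw11 libraries. All 49 members summed to 2831, 2818 and 2789 FPKM in control and 3051, 3005 and 2786 FPKM in Fbxw11 libraries, so that library 3 lay below every control. Without Fbxw11 library 3, 4 members rose (Psma5, Psma6, Psmd10 and Psme2) and Psmg2 fell, beside 3.84% of all genes that rose and 3.51% that fell. Without library 3 of both groups 5 rose, those 4 and Psmb4, and 0 fell, beside 3.33% and 3.07%. On the TPM scale 0 rose and 2 fell, Psme1 and Psmg2, beside 3.19% and 6.53% of all genes, and over plain read sums the same 2 fell, beside 3.5% that rose and 6.34% that fell. With voom on recovered reads Psma7, Psmb4, Psmd8 and Psmd10 rose, beside 6.9%, and Psme1 and Psmg2 fell, beside 6.86%.

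These differences were set beside gene length. For genes under 1000 bases in the table, library 3 lay below the mean of libraries 1 and 2 by a median of -0.09 (control) and -0.05 (Fbxw11) on the log2(FPKM + 1) scale over 1129 genes tested. The medians over 8547 genes of 2000 bases or more were 0.00 and 0.01. The 3 members under 1000 bases were Psmb5, Psme2b and Psmg4, with medians of -0.33 and -0.42. For the 12 members from 1000 to under 2000 bases the medians were 0.04 in control and -0.14 in Fbxw11 libraries, beside -0.0078 and -0.014 over the 1222 genes of that length. The 33 members of 2000 bases or more had medians of 0.01 and -0.04. The part of length in these differences was not tested.

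**Figure D4:**
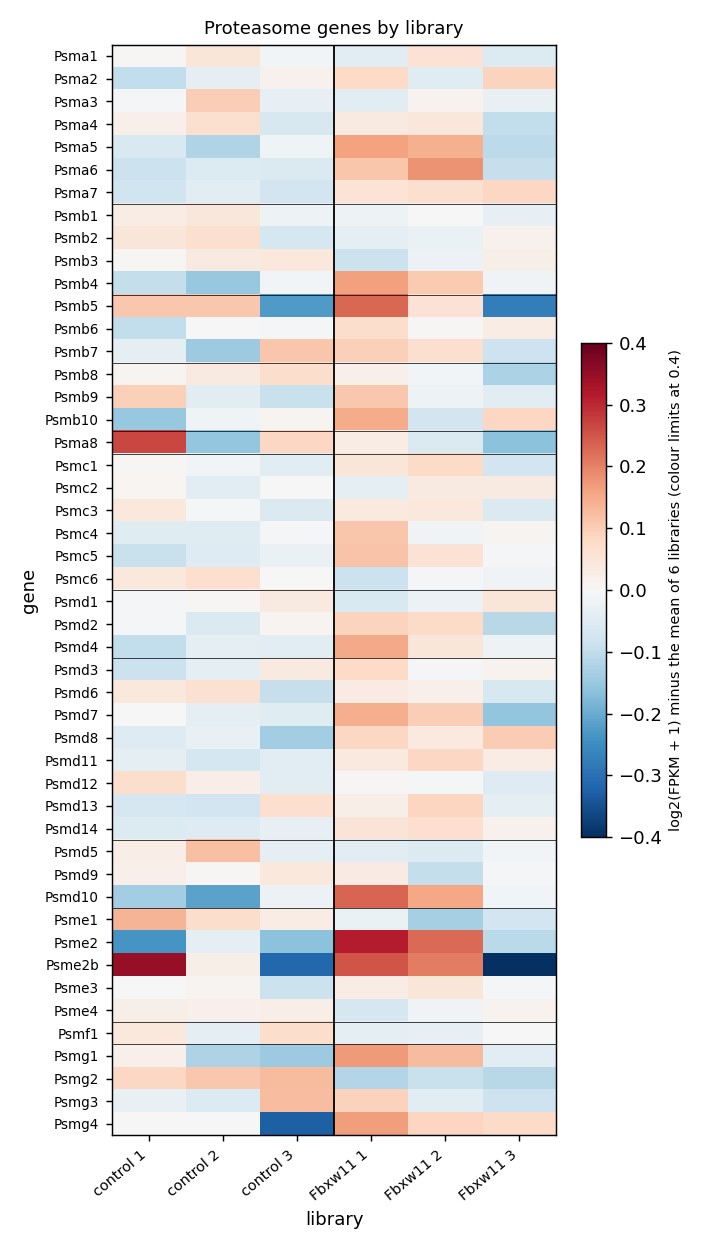
Log2(FPKM + 1) of the 48 tested proteasome genes in each library minus the mean of the 6 libraries, with colour limits at 0.4 and thin lines between roles. Fbxw11 library 3 is the lowest of its group for 29 genes, and Psmb5 and Psme2b are low in library 3 of both groups.

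Genes that work with the proteasome were taken from 3 lists. The 19 cofactors include genes that bring ubiquitinated proteins, mature the core or regulate its genes. They also include Sem1, Adrm1, Usp14 and Uchl5, whose symbols fall outside the rule for members. Of the 19, 0 rose and 1 fell (5.26%, beside 9.24% of all genes), with a median log2 fold change of 0.01 beside 0.00. At an unadjusted p under 0.05 there were 5 (26.3%, beside 24.6%). Ubqln2, a shuttle factor, fell from 12.1, 11.7 and 11.5 FPKM to 9.31, 9.53 and 10.5 FPKM (log2 fold change -0.25, SE 0.05, adjusted p = 0.0352). Its call was lost without a filter, with replicate number as a block and with any 1 library but Fbxw11 library 3 left out. Nfe2l1, the transcription factor that raises proteasome genes when degradation is blocked, was the most abundant cofactor at 122, 121 and 126 FPKM in control and 138, 131 and 130 FPKM in Fbxw11 libraries, without overlap (0.11, SE 0.04, adjusted p = 0.105). Of 6 genes of ubiquitin and its activation 0 passed. Ubb stood at 145, 148 and 140 FPKM and at 155, 147 and 152 FPKM (0.07, adjusted p = 0.264), and the activating enzyme Uba1 at 131, 129 and 132 FPKM and at 143, 139 and 135 FPKM (0.09, adjusted p = 0.143). Rps27a, named after its values were seen, ranged from 49.0 to 235 FPKM within the control group, and it has known processed copies, so its value is uncertain.

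Of 16 genes that induce the immunoproteasome or use its peptides 1 rose and 0 fell (6.25%, beside 9.24% of all genes), with a median log2 fold change of 0.08 beside 0.00. At an unadjusted p under 0.05 there were 8 (50%, beside 24.6%), and the groups of 6 higher and 2 lower genes did not overlap (50%, beside 31.1%). Irf8, an interferon regulatory factor of macrophages, rose from 10.1, 9.48 and 9.73 FPKM to 11.75, 10.97 and 11.02 FPKM (log2 fold change 0.19, SE 0.04, adjusted p = 0.0459). Its call was lost without a filter, on the TPM scale, over plain read sums and with replicate number as a block. It was also lost with any 1 library but control library 3 left out. Irf1, known to drive Psmb9 and Psmb8, stood at 2.16, 2.24 and 2.43 FPKM in control and 2.55, 2.72 and 2.97 FPKM in Fbxw11 libraries (0.19, SE 0.07, adjusted p = 0.140). It was higher in each Fbxw11 library than in each control without passing the test. B2m, the light chain of class I molecules, was the most abundant of the list, at 992, 1006 and 913 FPKM in control and 794, 815 and 899 FPKM in Fbxw11 libraries (-0.22, SE 0.06, adjusted p = 0.0843).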

How the data were processed

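RNA from 6 libraries of RAW264.7 cells (3 control, 3 Fbxw11, grouped by sample title) was extracted with a column kit, and sequencing libraries were made from total RNA, per the labels' protocols. The authors deposited FPKM for 56748 genes with gene lengths and coordinates. The submitters' processing notes name mm10, but 0 of 49 members had the start and end of GENCODE M21 on that build. Over all matched genes 1435 of 52036 had them. Coordinates given as the table's are therefore its own, with the build uncertain. Aligner, counter and filters: not given in the sources used here.

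FPKM times gene length gave whole multiples of 1 step per library (100% of values within 0.02), so reads were recovered for depth, which ran from 125 to 11149 reads per tested member and library. The library size behind the authors' FPKM was 1.01 to 1.02 times the sum of recovered reads in control and 0.987 to 0.993 times in Fbxw11 libraries, which raises FPKM in the latter relative to plain sums. Log2(FPKM + 1) was tested for 10898 genes whose mean reached 1 FPKM, with limma 3.58.1 in R 4.3.3 (eBayes with trend, two-sided, Benjamini-Hochberg), tested on simulated data. A log2 fold change on this scale understates changes of low genes. Errors are SE for log2 fold changes.

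Members and lists were chosen with earlier results of these data known. By rule, values per library are given for the 6 catalytic subunits, members past the threshold and the Psme and Psmf1 regulators, and from each list up to 4 genes past the threshold, filled up to 2 with the most abundant, with Irf1, Tap1, Nfe2l1 and a gene not reported here in any case. Other genes shown per library were named after their values were seen. Promoter sequences are RefSeq's (GRCm38.p6) and coding sequences and principal transcript lengths GENCODE M21's; coding sequences were aligned with Biopython 1.88. Alternatives are in the closing section.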

Additional observations from a re-analysis of the deposited data

How the results depend on the processing

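Of all genes, 501 rose and 506 fell. These counts were 289 and 307 without a filter, 752 rises with voom on recovered reads, 303 and 318 with the replicate block, 335 falls without library 3 of both groups, and 190 to 418 rises and 220 to 383 falls with 1 library left out. On the TPM scale 348 rose and 712 fell, and over plain read sums 381 and 691. The scale moved the median log2 fold change of all genes to -0.04 and -0.03 and that of the proteasome genes to -0.0099 and -0.0039.

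On the TPM scale 0 proteasome genes rose and 2 fell (Psme1 and Psmg2), beside 3.19% and 6.53% of all genes. Over plain read sums the same genes were called, beside 3.5% and 6.34%. With voom 4 rose (Psma7, Psmb4, Psmd8 and Psmd10) and 2 fell, beside 6.9% and 6.86% of all genes. With the replicate block 0 rose and 0 fell, beside 303 and 318 of 10898 genes. Without library 3 of both groups 5 rose and 0 fell, beside 3.33% and 3.07%. With 1 library left out 0 to 4 rose and 0 to 1 fell, beside 190 to 418 and 220 to 383 of all genes. These all-gene values stand beside the lists below too, with 289 rises and 307 falls of 25297 genes without a filter. So few calls in lists of 19, 6 and 16 genes say little beside such shares. Of the cofactors 2 rose with voom and 1 with the block, 0 fell without a filter or with the block, and 0 to 1 fell with 1 library left out. Of the ubiquitin genes 1 fell without library 3 of both groups, and 0 to 1 with 1 library left out. Of the inducers and class I partners 0 rose without a filter, on the TPM scale, over plain sums and with the block, 2 rose with voom, 1 fell on the TPM scale, over plain sums, with voom and without library 3 of both groups, and 0 to 1 rose and 0 to 1 fell with 1 library left out. The cause of these moves was not tested.

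The log2 fold change of Psmb5 was -0.036 on the TPM scale and -0.029 over plain sums, that of Psmb9 -0.0093 and -0.0032, and that of Psme2b 0.043 without library 3 of both groups. With 1 library left out Psmb5 ranged from -0.11 to 0.15, Psmb7 from -0.0094 to 0.12, Psmb9 from -0.018 to 0.083 and Psme2b from -0.21 to 0.21. No catalytic subunit passed the threshold under any alternative run. With 1 library left out the difference between the groups in each log2 ratio turned sign, ranging from -0.185 to 0.042 for Psmb8 to Psmb5, from -0.096 to 0.061 for Psmb9 to Psmb6 and from -0.015 to 0.144 for Psmb10 to Psmb7, and the last was -0.051 without library 3 of both groups. Whether a shared number marks a shared culture or day is not stated. Same-numbered libraries' deviations from their group means correlated at 0.04, 0.04 and 0.19, the last being the highest of any pair. Fbxw11 library 2 correlated best with control library 1 (0.15). With deviations taken from means of 3 libraries, these correlations cannot decide whether the libraries are paired. The planned edgeR and DESeq2 fits were not run, and voom on reads recovered from the FPKM was run instead. Depth limits Psmb11 and, with 3 libraries a group, every interval given.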
